A study of Homo sapiens with 11 samples.

Results

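The genes described here are 38 genes of ribosome biogenesis and RNA polymerase I, chosen by name from the 20500 entries of the deposited table; all 38 were found there, and all 38 had a value of at least 10 units in at least 5 libraries and entered the test. They were measured by RNA-seq in 786-0, an established human renal cell carcinoma line without working VHL. The cells were kept in DMSO vehicle (control, 6 samples) or given 10 µM everolimus in DMSO (5 samples), with 4 h of treatment; the labels write the dose as "10um". Everolimus, a derivative of rapamycin, inhibits the kinase mTOR in its complex 1. The samples are replicates of a single line, and the labels do not say whether they came from separate cultures, so a p-value here reflects only how these samples vary, which could be technical variation.

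Ribosomes are built in the nucleolus. RNA polymerase I transcribes the precursor of the large ribosomal RNAs, small nucleolar ribonucleoproteins (snoRNPs) guide its chemical modification, and many assembly factors fold, cut and export the small and large subunits. In growing cells this work takes up much of the biosynthetic output, and mTOR complex 1 and the transcription factor MYC are both known to promote it, mTOR in part by acting on the polymerase I factor encoded by RRN3. Libraries were made from polyadenylated RNA, so the values below are for the mRNAs of the pathway's proteins. Ribosomal RNA, protein and phosphorylation were not measured.

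Levels are in units, estimated read counts that the authors scaled so that the upper quartile of the values above 0 was about 1000 in each library. A unit was not the same number of reads in each library: 1 read was worth 0.307 to 1.05 units, and the libraries held 14230655 to 36828267 estimated reads in the controls and 29760921 to 52522889 with everolimus. The lowest value of any of the 38 genes in any library was 224 units, far above the 0.92 to 3.15 units that 3 reads were worth, a floor that covers counting error only. Levels are not divided by gene length and are compared only between libraries, not between genes. The renal marker PAX8 stood at 3189 ± 78.7 units (SD, n = 6) in the controls, and the endothelial marker PECAM1 and the T cell marker CD3E were at 0 in all 11 libraries. By the share of low values that were whole reads, the libraries fell into 2 sets: the first holds controls 1 to 3 with everolimus 1 and 2, and the other 6 libraries form the second. The labels name no batch, and both sets hold both groups.

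The transcripts of ribosome biogenesis did not move in 1 direction after 4 h of everolimus. Of the 38 genes, 10 rose, 11 fell and 17 did not pass the threshold (limma, adjusted p under 0.05 over 12668 entries), against 27.8% of all entries tested that were higher and 27.4% that were lower. The 21 called genes are 55.3% of the 38, where 55.2% of all entries were called, so the number of calls was near the background. The changes were small. The median log2 fold change was 0.05 (all entries -0.01) and the median absolute log2 fold change 0.14 (all entries 0.19). Of the 38, 1 gene, BOP1, passed the threshold with a change of at least 1.5-fold, as did 11.8% of all entries. The groups did not overlap for 12 genes, 4 higher and 8 lower with everolimus, against 37.9% of all entries (20.3% higher and 17.6% lower). Log2 fold changes are on the log2(value + 1) scale. In RNA from a whole culture, fewer cells that hold a transcript and less of it per cell cannot be told apart.

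**Figure D1:**
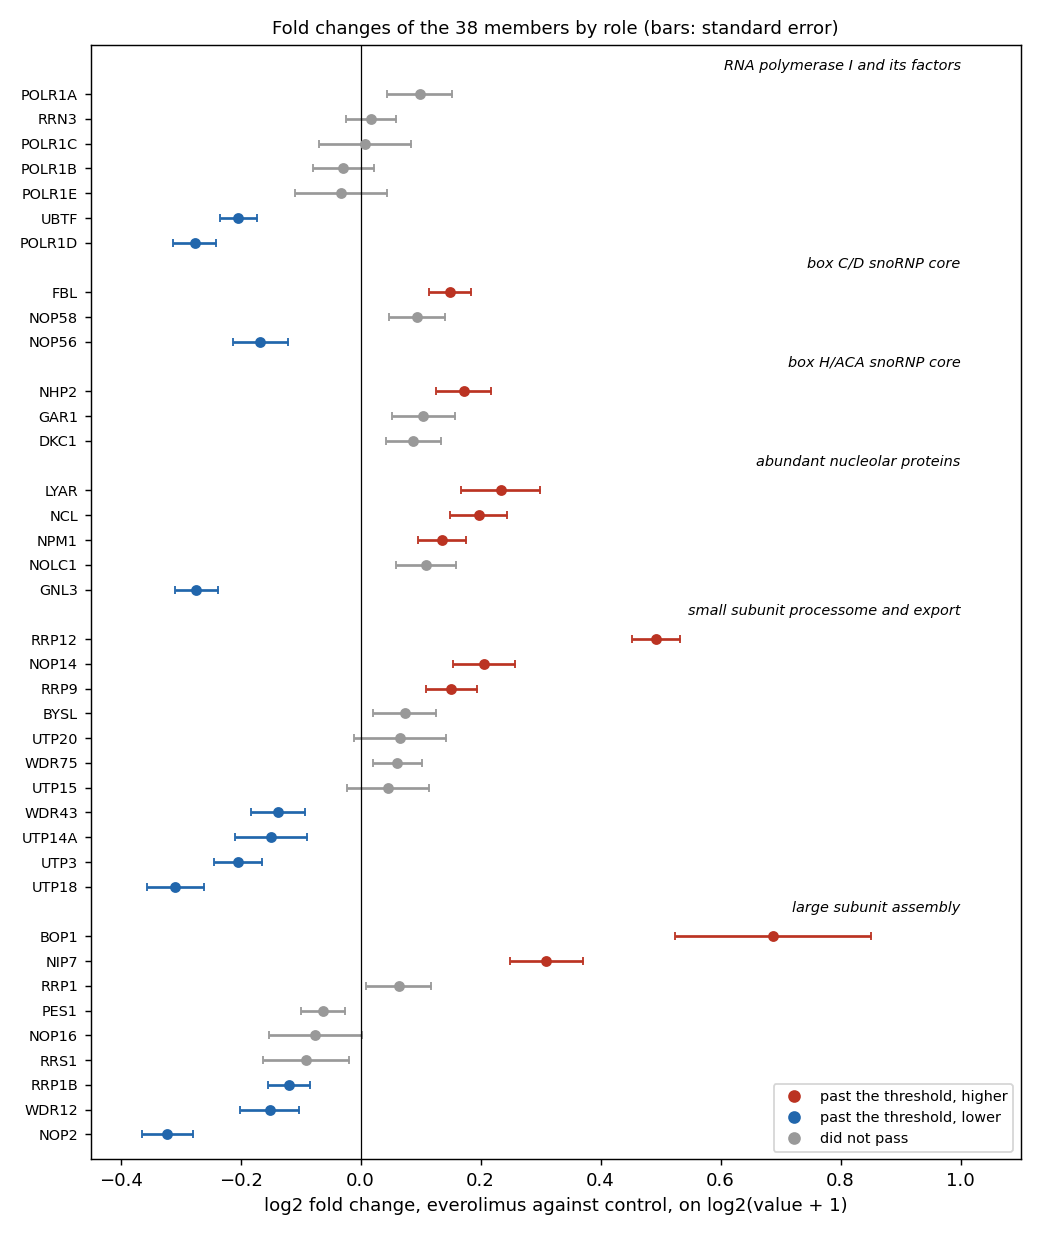
Log2 fold change of each of the 38 genes, everolimus against control, with standard errors as bars, grouped by role; red and blue genes passed the threshold. Most points lie between -0.32 and 0.31, and RRP12 (0.49) and BOP1 (0.69) stand to the right of the others.

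Within a library set alone, the calls held less often than the directions did. Each set has fewer libraries than the full fit, which is part of that comparison. In every fit that used 10 or 11 libraries, 17 of the 21 calls passed. In both library sets, the fold change of each of the 21 called genes had its sign over all 11 libraries; since the calls were made on the libraries of both sets, such a match is favoured. Of all 38 genes, 6 rose and 8 fell within the first set, against 24% and 19.3% of all entries, and within the second 7 rose and 7 fell, against 21.1% and 22.5%. The 6 include RRP1, which was not called over all 11 libraries. Of the 21, 9 passed in both sets, 9 in 1 set and 3 in neither. The 9 were BOP1, RRP12 and NIP7, which rose, and NOP2, UTP18, POLR1D, GNL3, UBTF and NOP56, which fell.

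The controls differed among themselves in these genes. In control 2, 30 of the 38 genes lay above their control mean, and in control 5 37 did, whereas in the other 4 controls 8 to 12 did. Of all entries, 44.9% did in control 2, 55.4% in control 5 and 39.8% to 61.8% in the other 4. The control mean includes controls 2 and 5, so part of this contrast with the other controls is built in. The median deviation of the 38 genes from their control mean was 0.08 in control 2 and 0.11 in control 5 (log2), while that of all entries was -0.01 in control 2 and 0.01 in control 5. With everolimus, 19 to 24 of the 38 genes lay above the control mean in each library, against 41.9% to 55.1% of all entries. Without control 2, 13 genes rose and 10 fell, and without control 5, 12 rose and 10 fell. The share of all entries called in those fits is not given here. Whether the counts of those fits moved more than the calls over all entries therefore cannot be told.

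**Figure D2:**
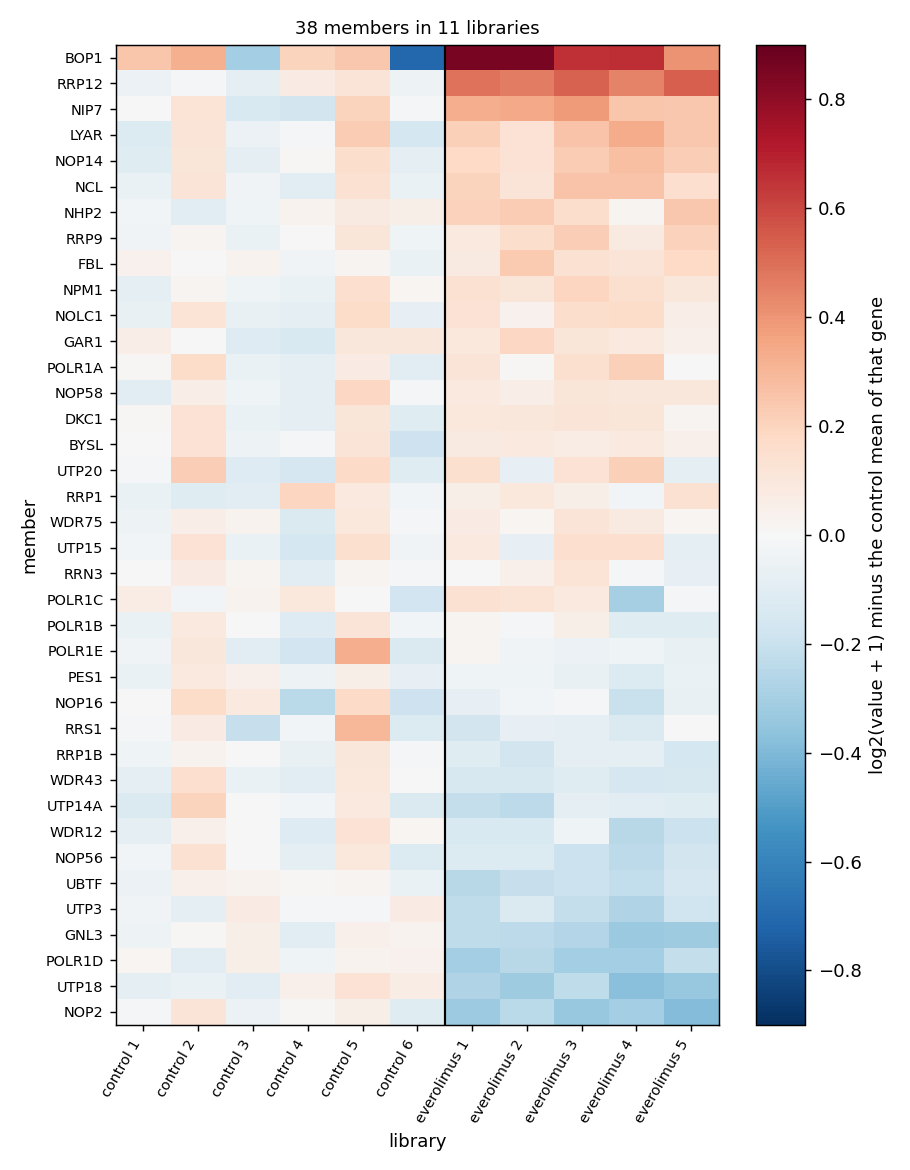
Log2(value + 1) of each gene in each library minus that gene's control mean, genes ordered by fold change and controls to the left of the black line. BOP1 and RRP12 are the reddest rows with everolimus and NOP2 and UTP18 the bluest, and the columns of controls 2 and 5 are redder than those of the other controls, with 30 and 37 of 38 genes above the control mean.

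Promoter sequence was not used in choosing these genes, and it was searched for a single motif. RefSeq promoter windows (GRCh38.p14, 250 bases before to 50 after an annotated start) were found for 31 of the 38 genes. The other 7 had no window and were not searched: POLR1E, NOP58, NOLC1, RRP12, BOP1, RRS1 and RRP1B. They include the largest rises of the 38, BOP1 (log2 0.69) and RRP12 (0.49). The motif CACGTG, the E-box that MYC with its partner MAX is known to bind, was in the window of 13 of the 31 (41.9%). It reads the same on both strands. It was in 12.8% of the 8789 tested entries with a window, in 8.77% of the windows of all 27305 genes, and in 26.9% of 130 other genes of the pathway listed below. Of 14 such sites in the 13 genes, 11 began within 40 bases of the start and 9 lay downstream of it. A match is a description of these letters and not a measure of binding. The sites of the 9 called genes that hold one are printed because they include genes that rose and genes that fell. Each is 30 bases, 5′ to 3′ on the gene's strand, with the motif in capitals, for genes that rose first:
FBL (chr19:39846356-39846385, minus strand): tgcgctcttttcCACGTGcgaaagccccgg
NOP14 (chr4:2963374-2963403, minus strand): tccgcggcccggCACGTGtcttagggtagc
LYAR (chr4:4290068-4290097, minus strand): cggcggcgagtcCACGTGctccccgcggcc
RRP9 (chr3:51941892-51941921, minus strand): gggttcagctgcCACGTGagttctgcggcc
NOP2 (chr12:6568242-6568271, minus strand): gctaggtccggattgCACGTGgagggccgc
UTP18, upstream (chr17:51260445-51260474, plus strand): gggagtgctggtCACGTGgcaagaggctgc
UTP18, at the start (chr17:51260538-51260567, plus strand): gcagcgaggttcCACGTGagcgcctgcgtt
GNL3 (chr3:52686026-52686055, plus strand): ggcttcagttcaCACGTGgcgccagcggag
WDR43 (chr2:28894658-28894687, plus strand): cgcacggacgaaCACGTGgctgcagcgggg
UTP14A (chrX:129905914-129905943, plus strand): accttgggcCACGTGgaaaccaggggccag

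Among the genes with a window, the motif was found on both sides of the fold changes. It was in 4 of 8 windows of genes that rose, 5 of 10 of genes that fell and 4 of 13 of genes that did not pass, the last being GAR1, BYSL, UTP20 and PES1. UTP18, which has the motif at both places printed above, was among the largest falls, and FBL and NOP2, each with it just after the start, went in opposite directions.

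MYC itself, the regulator of this pathway, rose. Its values were 907, 976, 872, 935, 1058 and 859.9 units in controls 1 to 6 and 1796, 1928, 1907, 2082 and 2149.7 in everolimus 1 to 5. Every everolimus library was above every control. The log2 fold change was 1.08 (SE 0.058, limma adjusted p = 1.39e-09), with 1.02 among the libraries of the first set and 1.11 among those of the second. Of the 38 genes, 37 changed by less than 1.5-fold, where 11.8% of all entries passed the threshold with at least 1.5-fold. Whether the rise of MYC is related to the changes of the 38 genes was not tested.

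RNA polymerase I and its factors were represented by 7 genes, of which 2 fell, 0 rose and 5 did not pass. POLR1D encodes a small subunit that RNA polymerases I and III share. It stood at 1136, 1053, 1164, 1092, 1147 and 1156 units in the controls and at 909.9, 944, 910.0, 910.1 and 968 with everolimus. All 5 everolimus values were below the lowest control. POLR1D fell by 0.28 on the log2 scale (SE 0.036, limma adjusted p = 1.4e-05), with -0.27 and -0.28 in the library sets.

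UBTF encodes UBF, the factor that binds along the ribosomal DNA repeats and holds them open for transcription. Its values were 2483, 2653, 2628, 2592, 2611 and 2463 units in the controls and 2161, 2228, 2246, 2208 and 2319 with everolimus. The groups again did not overlap. UBTF changed by a log2 of -0.20 (SE 0.031, limma adjusted p = 6.33e-05), from 2572 ± 79.2 units (SD, n = 6) to 2232 ± 58.0 (n = 5), with -0.24 and -0.18 in the sets.

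The catalytic subunits and the initiation factor did not pass. POLR1A, the largest subunit, stood at 1045, 1165, 996, 983, 1092 and 967 units in the controls and 1126, 1047, 1151, 1203 and 1043 with everolimus. Its log2 fold change was 0.10 (SE 0.054, limma adjusted p = 0.138); it passed without control 2 (adjusted p = 0.0356), the lowest of its 24 alternatives, which ranged up to 0.793. POLR1B, the second largest subunit, was at 520.1, 577, 541, 499, 588 and 533 units in the controls and 552, 539.5, 564, 503 and 503 with everolimus, and the groups overlapped throughout. The log2 fold change of POLR1B was -0.03 (SE 0.051).

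POLR1C, the partner of POLR1D in both polymerases, had 359.6, 338, 350.3, 366, 345 and 304 units in the controls and 377, 374, 365, 278 and 341 with everolimus. Everolimus 4 was the lowest of all 11 libraries and everolimus 1 the highest, and the log2 fold change was 0.01 (SE 0.077). The exons of POLR1C overlap those of LRRC73, XPO5 and YIPF3 on the opposite strand, which makes its level uncertain. The ratio of POLR1D to POLR1C within a library was 3.28 ± 0.285 (SD, n = 6; 2.98 to 3.80) in the controls and 2.71 ± 0.354 (n = 5; 2.42 to 3.27) with everolimus, and the groups overlapped. POLR1E, a subunit that takes part in initiation, was at 358, 392, 343, 324, 458 and 334 units against 371, 358, 353, 356 and 349, with control 5 the highest (log2 -0.03, SE 0.076).

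RRN3 encodes TIF-IA, which couples the polymerase to the promoter and is a known target of mTOR signalling at the level of its phosphorylation. Its transcript was at 912, 963, 932, 855, 932 and 903 units in the controls and at 918, 945, 999, 905 and 872 with everolimus. The groups overlapped, with a log2 fold change of 0.02 (SE 0.042, limma adjusted p = 0.751). GENCODE v29 names 2 pseudogenes of RRN3, which makes its level uncertain.

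The box C/D snoRNP carries out 2′-O-methylation of ribosomal RNA, and its core genes went apart. NOP56, a scaffold protein of the particle, had 2961, 3312, 3005, 2837, 3210.3 and 2764 units in the controls and 2757, 2768, 2630.1, 2559.6 and 2684 with everolimus. Control 6 was the lowest control and lay below everolimus 2. NOP56 fell by 0.17 on the log2 scale (SE 0.046, limma adjusted p = 0.00642). GENCODE v29 names 3 pseudogenes of NOP56, so its level carries the same uncertainty.

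FBL encodes fibrillarin, the methyltransferase. It stood at 1591, 1548, 1581, 1511, 1575 and 1483 units in the controls and at 1635, 1820.3, 1699, 1675 and 1757 with everolimus. Every everolimus library was above every control, and FBL rose by a log2 of 0.15 (SE 0.035, limma adjusted p = 0.00217). It did not pass among the first set's libraries alone (0.13, limma adjusted p = 0.0727, the highest of its alternatives, which went down to 0.00141). NOP58, the partner scaffold of NOP56, had 1724, 1924, 1803, 1735, 2105 and 1823 units against 1966, 1930.0, 1993, 1986 and 1984. All everolimus values of NOP58 were within 1930.0 to 1993, inside the wider range of the controls. Its log2 fold change was 0.09 (SE 0.046, limma adjusted p = 0.103), and it passed without control 5 (adjusted p = 0.00631), the lowest of its alternatives, which ranged up to 0.365.

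The ratio of NOP56 to each partner fell without overlap. NOP56 over NOP58 within a library ran from 1.52 to 1.72 in the controls and from 1.29 to 1.43 with everolimus. NOP56 over FBL ran from 1.86 to 2.14 in the controls and from 1.52 to 1.69 with everolimus. FBL over NOP58 was 0.840 ± 0.0626 (SD, n = 6) and 0.871 ± 0.0449 (n = 5), with overlap. These pairs were set side by side after their values were seen, and the ratios of values depend on transcript length, so only their difference between libraries is described.

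**Figure D3:**
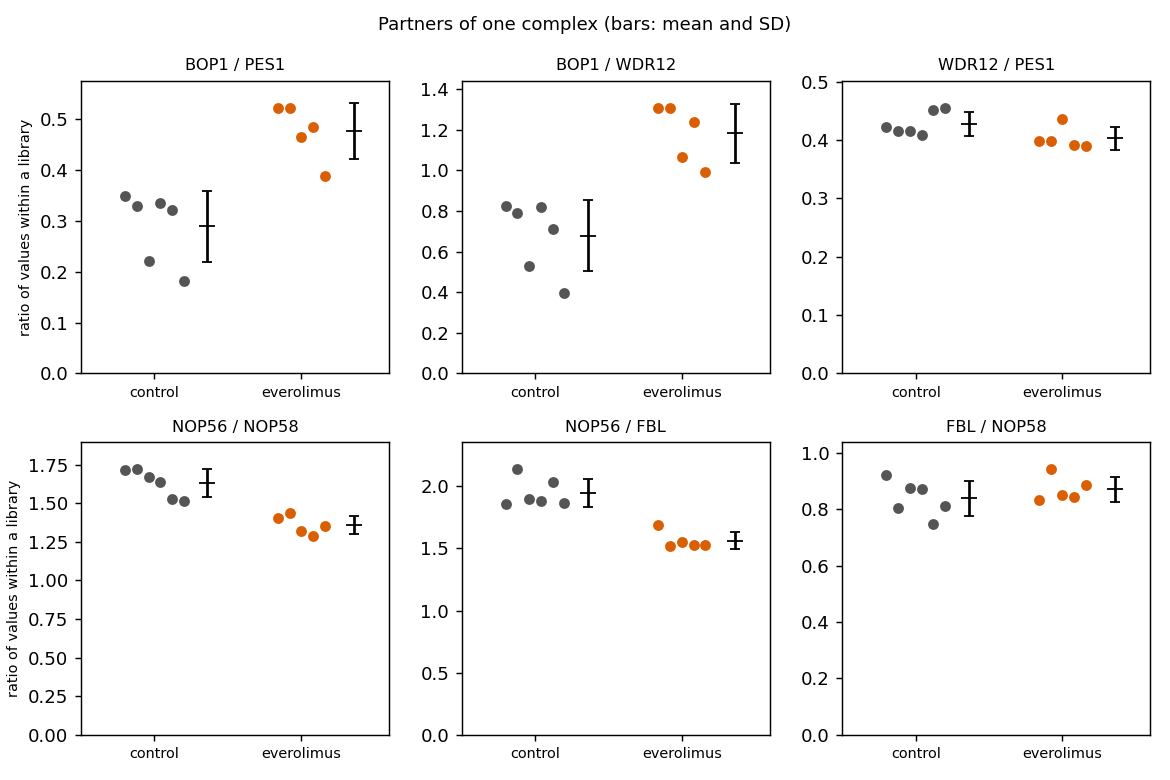
Ratio of the values of a pair of partner genes within each library (grey: 6 controls; orange: 5 everolimus libraries; bars: mean and SD), for the PES1, BOP1 and WDR12 complex in the upper row and the box C/D core in the lower row. BOP1 over either partner is higher and NOP56 over either partner lower with everolimus, without overlap, whereas WDR12 over PES1 and FBL over NOP58 overlap.

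The box H/ACA snoRNP converts uridines of ribosomal RNA to pseudouridine. Of its core genes 1 rose and the other 2 did not pass. NHP2, an RNA-binding core protein, was at 1218, 1158, 1206, 1269, 1315 and 1288 units in the controls and at 1434, 1452, 1384, 1261 and 1471 with everolimus. Everolimus 4 lay among the controls and the other everolimus libraries above them. NHP2 rose by 0.17 (SE 0.046, limma adjusted p = 0.00535), by 0.27 in the first library set, and had a log2 fold change of 0.09 in the second, where it did not pass. DKC1, the pseudouridine synthase dyskerin, stood at 2925, 3182, 2781, 2732, 3128 and 2694 units against 3098, 3106, 3151, 3121 and 2946.

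Controls 2 and 5 were the 2 highest controls of DKC1 and reached the everolimus values. Its log2 fold change was 0.09 (SE 0.045, limma adjusted p = 0.115); without control 2 it passed (adjusted p = 0.032), in a range of 0.032 to 0.413 over its alternatives. GAR1, the glycine- and arginine-rich core protein, was at 597, 571, 528, 519, 613 and 614 units against 612, 653, 618, 607 and 589.9, with a log2 fold change of 0.10 (SE 0.052) and overlapping groups. NHP2 shares exon sequence with RMND5B on the opposite strand and has 2 named pseudogenes, and the use of strand in counting is not given in the sources used here.

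Among the abundant nucleolar proteins and their regulators 3 genes rose, 1 fell and 1 did not pass. GNL3 encodes nucleostemin, a GTP-binding protein of the nucleolus known from stem and tumour cells. Its values were 1912, 1992, 2053, 1849, 2037 and 2026 units in the controls and 1691, 1682, 1649.8, 1571 and 1583 with everolimus. The groups did not overlap, and GNL3 fell by 0.27 on the log2 scale (SE 0.036, limma adjusted p = 1.67e-05). Its exons overlap those of GLT8D1 on the opposite strand.

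LYAR, a zinc finger protein of the nucleolus, rose. It was at 506, 597, 532, 546, 645 and 493 units in the controls and at 638, 602, 657, 694 and 651 with everolimus. Control 5 lay within the everolimus range and the other controls below it. The log2 fold change was 0.23 (SE 0.066, limma adjusted p = 0.00763), 0.26 in the second set and, without passing, 0.19 in the first. A pseudogene of LYAR is named in GENCODE v29.

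Nucleolin (NCL) and nucleophosmin (NPM1) are chaperones of ribosome assembly; they were looked at after their values were seen. NCL had 15852, 17970.3, 16188, 15416, 18226 and 15921 units in the controls and 19003, 17989, 19822, 19748 and 18398 with everolimus, where control 5 lay in the everolimus range and the other controls below it. NCL rose by 0.20 (SE 0.048, limma adjusted p = 0.00302) and NPM1 by 0.14 (SE 0.040, limma adjusted p = 0.00997). Both calls were lost after quantile normalization, with log2 fold changes of 0.05 for NCL (adjusted p = 0.421) and 0.03 for NPM1 (adjusted p = 0.484), the highest of their alternatives, which went down to 0.000834 for NCL and 0.000662 for NPM1. NCL also did not pass within the first library set (limma adjusted p = 0.0698), nor NPM1 within the second (limma adjusted p = 0.147). In GENCODE v29, 45 pseudogenes are named for NPM1 and 2 for NCL. NOLC1, a chaperone of snoRNPs, did not pass (log2 0.11, SE 0.050, limma adjusted p = 0.079). It passed without control 2 (adjusted p = 0.0319), without control 5 (adjusted p = 0.0156) and with library quality weights (adjusted p = 0.0374), in a range of 0.0156 to 0.389 over all its alternatives.

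**Figure D4:**
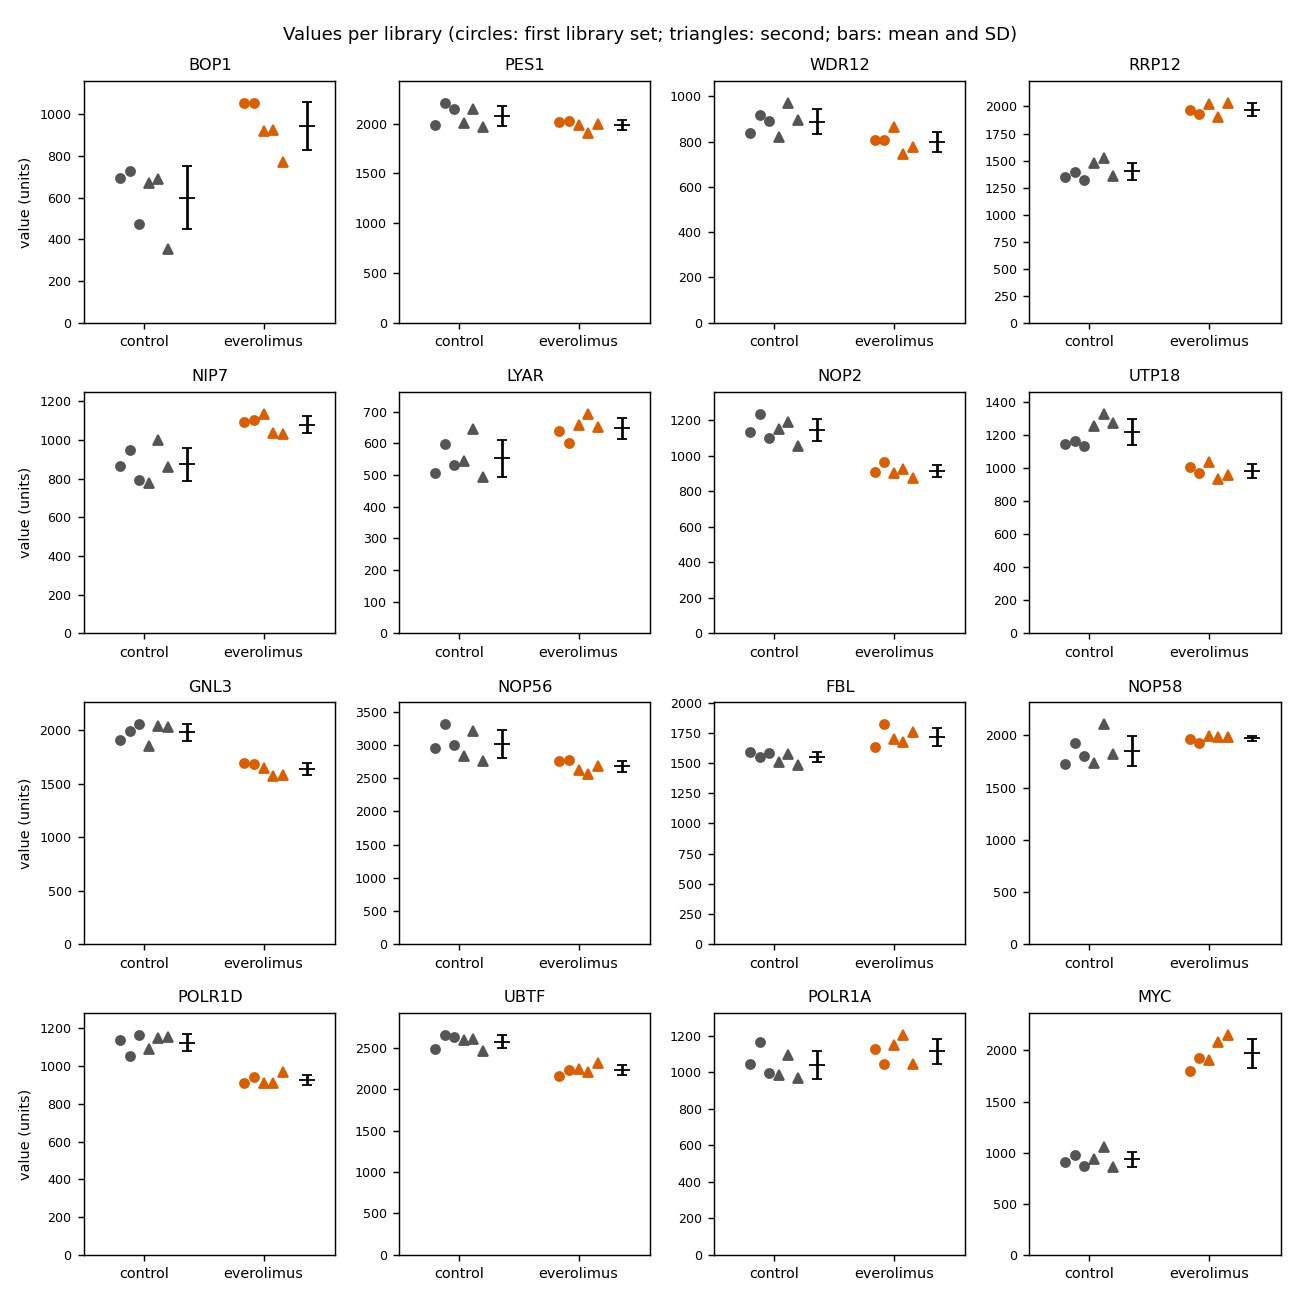
Values in units of 15 genes of the set and of MYC in each library (grey: 6 controls; orange: 5 everolimus libraries; circles and triangles: first and second library set; bars: mean and SD), with every axis starting at 0. BOP1, RRP12, NIP7, FBL and MYC are higher and NOP2, UTP18, GNL3, POLR1D and UBTF lower with everolimus without overlap, and PES1 and POLR1A overlap.

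Of 11 genes of the small subunit processome, the large complex that assembles on the nascent precursor, and of subunit export, 3 rose, 4 fell and 4 did not pass. RRP12, a factor of maturation and nuclear export of subunits, had the largest rise of these. It was at 1352, 1393, 1318, 1475, 1519 and 1356 units in the controls and at 1968, 1928, 2025, 1907 and 2032 with everolimus. The lowest everolimus library stood well above the highest control. RRP12 rose 1.41-fold (log2 0.49, SE 0.040, limma adjusted p = 1.11e-07), by 0.52 and 0.46 in the library sets.

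NOP14, a processome factor needed for cleavage of the precursor, was at 1104, 1289.9, 1128, 1204, 1330.0 and 1122 units in the controls and at 1354, 1304, 1395, 1443 and 1393 with everolimus. Only control 5 reached into the everolimus range. NOP14 rose by 0.21 (SE 0.051, limma adjusted p = 0.0035), and in the first library set, at 0.18, it did not pass. RRP9, a protein of the U3 snoRNP, rose by 0.15 (SE 0.043) but passed in neither set alone.

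UTP18, a processome protein with WD repeats that also helps to recruit the nuclear exosome in yeast, fell most in this group. It stood at 1147, 1167, 1136, 1256, 1330.5 and 1272 units in the controls and at 1008, 973, 1038, 935 and 958 with everolimus. The groups did not overlap. UTP18 fell by 0.31 on the log2 scale (SE 0.047, limma adjusted p = 6.25e-05), with -0.22 and -0.40 in the first and second sets. UTP3, another processome protein, had 705, 677, 758, 717, 715 and 759 units against 616, 658, 621, 599 and 637. It was lower with everolimus without overlap (log2 -0.20, SE 0.041, limma adjusted p = 0.000643), and did not pass in the first set, at -0.16.

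WDR43, WDR75 and UTP15 belong to the subcomplex that links transcription of the precursor to its processing, and 1 of these 3 fell. WDR43 fell by 0.14 on the log2 scale (SE 0.045, limma adjusted p = 0.019), from 1614 ± 118 units to 1464 ± 17.6, and passed in neither library set alone. WDR75 (0.06, SE 0.042) and UTP15 (0.05, SE 0.069), whose exons overlap those of ANKRA2 on the opposite strand, did not pass. UTP14A, which activates the helicase DHX37, had a log2 fold change of -0.15 (SE 0.060, limma adjusted p = 0.0473). Its call was lost under 13 of 24 alternatives, among them the fits without each of controls 2 to 5 and without each of everolimus 1 to 5, where adjusted p went up to 0.113 (0.025 to 0.418 over all its alternatives). UTP20 (0.07, SE 0.077) and BYSL (0.07, SE 0.052), factors of small subunit maturation, did not pass.

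Of 9 genes of large subunit assembly 2 rose, 3 fell and 4 did not pass. BOP1, PES1 and WDR12 encode the 3 proteins of a complex required for processing of the large subunit's RNA, and their transcripts differed. BOP1 was at 692, 726, 472, 671, 688 and 356 units in the controls and at 1054, 1055, 919, 924 and 772 with everolimus. Controls 3 and 6 were low among the controls, everolimus 5 was low among the treated libraries, and the groups did not overlap. BOP1 rose 1.61-fold (log2 0.69, SE 0.164, limma adjusted p = 0.00252), by 0.77 and 0.66 in the sets. Its error was the largest of the 38: the SD of the controls was 25% of their mean, against 2.79% to 13.5% for the other 37 genes.

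WDR12 stood at 838, 916, 890.4, 819.5, 970.4 and 896 units in the controls and at 806, 805, 864, 746 and 777 with everolimus. Everolimus 3 lay among the controls and the other everolimus libraries below them. WDR12 fell by 0.15 on the log2 scale (SE 0.049, limma adjusted p = 0.0175), a call lost when everolimus 4 was left out (adjusted p = 0.0501) and in either set alone; adjusted p ranged from 0.00368 to 0.0925 over all its alternatives. PES1 did not pass, with 2076 ± 102 units (SD, n = 6) and 1986 ± 45.9 (n = 5) and a log2 fold change of -0.06 (SE 0.037, limma adjusted p = 0.16).

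BOP1 over PES1 within a library ran from 0.181 to 0.349 in the controls and from 0.387 to 0.522 with everolimus. BOP1 over WDR12 ran from 0.398 to 0.826 and from 0.994 to 1.31. These ratios, like that of POLR1D to POLR1C, were also looked at after the values were seen. In both ratios every everolimus library was above every control, while WDR12 over PES1 was 0.428 ± 0.0204 (n = 6) and 0.403 ± 0.0189 (n = 5), with overlap. WDR12 and PES1 share exon sequence with CARF and TCN2 on the opposite strand, and 2 pseudogenes of PES1 are named.

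NIP7, a factor of large subunit RNA processing, rose. Its values were 868, 947, 792, 778, 999 and 858 units in the controls and 1092, 1101, 1136, 1037 and 1031 with everolimus. There was no overlap, and the log2 fold change was 0.31 (SE 0.061, limma adjusted p = 0.000592), 0.34 and 0.29 in the sets. NIP7 has 3 named pseudogenes and shares exon sequence with COG8 on the opposite strand.

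NOP2, an RNA methyltransferase of the large subunit and a proliferation antigen, had the largest fall of the 38. Its exons overlap those of the coding gene AC006064.6 on the same strand, so its level is uncertain. It was at 1130.0, 1235, 1102, 1148, 1186 and 1056 units in the controls and at 908, 963, 899.6, 924 and 872 with everolimus. All 5 everolimus values were below the lowest control. NOP2 fell by 0.32 on the log2 scale (SE 0.043, limma adjusted p = 1.7e-05), from 1143 ± 63.0 units (SD, n = 6) to 913 ± 33.5 (n = 5), with -0.30 and -0.33 in the sets. RRP1B, a paralogue of RRP1, fell by 0.12 (SE 0.035, limma adjusted p = 0.0101) without overlap, but did not pass in the second set, at -0.11. RRP1 itself (0.06, SE 0.055), NOP16 (-0.08, SE 0.078) and RRS1 (-0.09, SE 0.072) did not pass. RRP1 passed as higher within the first library set (0.16, limma adjusted p = 0.0277), but in the second its log2 fold change was -0.03 (limma adjusted p = 0.747); these are the lowest and highest adjusted p of its alternatives. The exons of NOP16 and RRS1 overlap those of other coding genes.

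The 17 genes that did not pass had log2 fold changes from -0.09 to 0.11, 12 above 0 and 5 below. The standard error was 0.031 to 0.078 for every gene of the 38 but BOP1.

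The wider pathway also held calls in both directions. Of 156 other genes in 7 lists, 35 rose, 42 fell and 79 did not pass; 49.4% were called, against 55.2% of all entries, and the median log2 fold change was -0.01. Within the first library set 29 rose and 23 fell (24% and 19.3% of all entries), and within the second 20 rose and 38 fell (21.1% and 22.5% of all entries). The groups did not overlap for 48 of them, 22 higher and 26 lower, against 37.9% of all entries (20.3% and 17.6%).

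Of 15 other genes of RNA polymerase I and its promoter factors 3 rose and 1 fell. PTRF (now CAVIN1), first described as a release factor of polymerase I and also the coat protein of caveolae, rose from 8478 ± 457 to 13165 ± 268 units (log2 0.64, SE 0.037). TBP, the TATA-binding protein shared by all 3 nuclear polymerases, fell by 0.18 on the log2 scale (SE 0.053, limma adjusted p = 0.0104), which did not pass among the second set's libraries. Of 22 genes of RNA polymerase III, which makes the smallest ribosomal RNA and tRNAs, 5 rose and 7 fell. Its subunit gene POLR3D rose from a control range of 249 to 297 units to 337 to 366 with everolimus (0.34, SE 0.055), and GTF3C1, the largest subunit of the factor TFIIIC, fell from 2560.2 ± 128 to 1916 ± 69.1 (-0.42, SE 0.039).

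Of 40 other genes of the small subunit processome and late small subunit maturation 7 rose and 13 fell, with a median of -0.05. C1orf107 (now UTP25) rose from 577 ± 31.6 to 887 ± 32.5 units (0.62, SE 0.044), and LTV1, a factor of late cytoplasmic maturation, fell from 723 ± 34.2 to 579 ± 23.1 (-0.32, SE 0.042). Of 45 other genes of large subunit assembly 13 rose and 9 fell, with a median of 0.02. EIF6, which keeps the large subunit from joining too early, rose from 3228 ± 98.9 to 4249.8 ± 241 units (0.40, SE 0.039), and FTSJ3, a methyltransferase, fell from 1847 ± 73.4 to 1387 ± 20.5 (-0.41, SE 0.033).

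Of 11 snoRNP assembly genes 2 rose and 2 fell. ZNHIT6, of box C/D assembly, rose by 0.19 (SE 0.041), a call lost within the first library set, and SHQ1, a chaperone of dyskerin, fell by 0.39 on the log2 scale (SE 0.057). Of 15 genes of the RNA exosome and precursor trimming 4 rose and 6 fell. The exosome ring genes EXOSC5 (0.32, SE 0.064) and EXOSC8 (-0.33, SE 0.035) moved apart, and the call of EXOSC5 was lost within the second set. Of 8 regulators of ribosomal DNA transcription 1, MYC, rose and 4 fell.

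**Figure D5:**
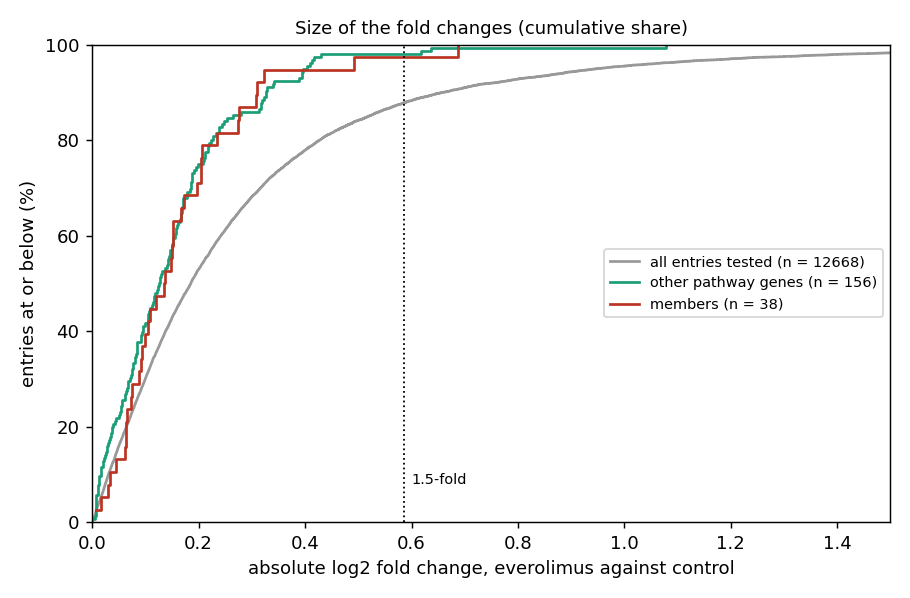
Cumulative share of entries by absolute log2 fold change for the 38 genes (red), 156 other genes of the pathway (green) and all 12668 entries tested (grey); the dotted line marks 1.5-fold. The medians are 0.14 for the 38 genes, 0.13 for the other pathway genes and 0.19 for all entries; the difference between the curves was not tested.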

How the data were processed

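RNA from 11 samples was sequenced from libraries made with a stranded mRNA kit, per the labels' protocols. The authors deposited 1 table of a scaled signal: values per entry, never negative, scaled so that percentile 75 of nonzero values is about 1000 in every column. The submitters' processing notes name hg19, Picard 1.64, SAMtools and RSEM without roles. The sources used here give no aligner, annotation or use of strand. The value of 1 read was found from the spacing of low values; since a part of the values was fractional, no count model was used. There were 0 unused columns.

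Groups and replicate numbers came from the sample titles. Two-sided tests used limma-trend (limma 3.58.1, R 4.3.3) on log2(value + 1). They covered 12668 entries with at least 10 units in at least 5 of 11 libraries. Benjamini-Hochberg adjustment was over all of these entries, with a threshold of 0.05. The fit was tested on simulated data with independent noise, few changed entries and no library sets. Those settings differ from the data here, so that run does not show how the test performs on them. Errors are SD of levels and standard errors (SE) of log2 fold changes. The 38 genes, the lists and the tests were chosen with earlier results of these data known. Values per library are given for the polymerase I and snoRNP core genes and, of the other called genes, the 5 highest and 5 lowest fold changes; of each other list, the gene with the smallest p in each direction is named, except 1 that is not reported here. Library sets were divided at the largest gap in the share of values up to 200 reads that were whole within 0.1 reads. RefSeq supplied promoter windows (GRCh38.p14) and older symbols; GENCODE v29 supplied overlapping exons and pseudogene names, and no coordinates of it are given. Overlaps were read from a later build than the hg19 of the processing notes.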

Additional observations from a re-analysis of the deposited data

Results flagged for a closer look

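Among 78 groups of values (38 genes and MYC, in controls and with everolimus), 2 single libraries lay far from the rest of their group by Dixon's test; chance flags about 1 in 20 groups. DKC1 in everolimus 5 was at 2946 units, while the other 4 everolimus libraries were between 3098 and 3151. WDR43 in everolimus 3 was at 1495 units, while the other 4 were between 1449.7 and 1459; it still lay below the lowest control.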

How the results depend on the processing

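No called gene of the 38 changed sign under any of its 24 alternatives. The counts of genes that rose and fell (10 and 11) moved by over 1.5 times only within a library set, with 6 higher in the first and 7 lower in the second; the fewer libraries of a set are part of that comparison. Likewise, of the other pathway genes (35 and 42), 20 rose in the second set and 23 fell in the first. Leaving out 1 library gave 10 to 13 higher and 9 to 11 lower of the 38, a median of 0.03 to 0.08, and 30 to 39 higher and 38 to 44 lower of the other genes. Of the 21 calls, 17 passed in every fit that used 10 or 11 libraries, the exceptions being NCL, NPM1, UTP14A and WDR12; the cause was not tested. Quantile normalization called 8 higher and 11 lower of the 38. With the replicate number as a block over the 10 libraries numbered 1 to 5, 10 rose and 11 fell, as without the block, and of the other genes 24 rose and 37 fell, against 31 and 41 without it; the log2 fold change of TBP did not pass with the block (-0.16, limma adjusted p = 0.07015, in a range of 0.00271 to 0.158 over its alternatives). Whether the replicate numbers mark a pairing could not be told. Of 5 same-numbered pairs, 4 had correlated deviations over 0.1. The range was -0.51 to 0.60, and 1 of 5 controls correlated best with its own number. Correlations were positive between libraries of the same set and negative across sets, and the sets were not removed from this check. The fit of 10 libraries without a block was chosen after seeing the data. Except within the library sets, the share of all entries called is not given for these alternatives. Their counts therefore have no background beside them.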
